A study of Mus musculus with 12 samples.

Results

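The genes described here are 36 listed targets of the transcription factor p53, Cdkn1a left out, among 19463 genes counted in single blood progenitors of the mouse fetal liver. Members were found by symbol in the tables of unique molecule counts (UMIs, one per tagged mRNA molecule), over wells with at least 1000 UMIs outside the spike-in rows, summed per plate, and a member needed at least 20 UMIs over all plates. All 36 reached that minimum, from Fas with 20 UMIs and Plk3 with 27 up to Trp53 with 13596 and Rps27l with 25024. The filter on low counts then kept 31 of them among 12221 genes tested, and Fas, Gdf15, Plk2, Plk3 and Pltp were counted but not tested.

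The cells were LSK cells, progenitors sorted as lineage-negative, Sca-1-positive and Kit-positive, from day 18.5 fetal liver of C57BL/6J mice, one cell per well, read by SORT-seq, which tags mRNA 3' ends. Double mutants were homozygous for both the Pcna K164R change and Rev1 loss (Pcna K164R/K164R;Rev1-/-, 4 plates). Pcna K164R/K164R fetuses carried the clamp change alone (2 plates), Rev1-/- fetuses lacked the polymerase alone (3 plates, called Rev1 knockout), and WT carried neither (3 plates). Both genes serve DNA damage tolerance, the passage of replication past damaged template: Rev1 is a translesion polymerase, and K164R replaces the lysine of the clamp Pcna that is ubiquitinated at stalled forks. The labels do not say that plates of a genotype come from separate fetuses, so p-values measure the spread between plates, which may be technical.

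The kept wells of a plate held 212938 to 11617420 UMIs, and the thinnest plate was double mutant replicate 3, with 82 kept wells. Rev1 itself stood at 1.33, 2.50, 8.68 and 13.4 CPM (the UMIs of a gene scaled to a common total per plate) in double mutant replicates 1 to 4, at 5.62, 1.26 and 3.70 CPM in Rev1 knockout plates and at 10.5, 18.4 and 11.98 CPM in WT plates. Replicate 4 thus had as much Rev1 as WT plates, and the library labelled double mutant replicate 4 goes against that label, unless the tags lie outside the deleted part of Rev1, and the value of replicate 3 is 1 UMI. The main directions below are given with and without these 2 plates. CPM are TMM-scaled, and the scaling raises replicate 3, whose normalisation factor is 0.549, relative to the other plates, so statements below that plates do not overlap can turn on it. Both genes that define the sort, Kit and Ly6a, were counted in every plate but double mutant replicate 3, where 1 of them was at 0, and summed to 122 to 274 CPM in double mutant plates and 392 to 580 CPM in WT plates. Hepatocyte markers summed to 4.87 to 26.0 CPM in double mutant plates and 6.45 to 13.1 CPM in WT plates. In summed plates, fewer cells of a type and less RNA per cell cannot be told apart.

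p53 is held low in unstressed cells by the ubiquitin ligase Mdm2 and is stabilised after DNA damage. It then binds a motif made of a pair of decamers and switches on genes for cell cycle arrest, cell death, repair and metabolism, along with Mdm2 itself, which closes a feedback loop. In blood stem and progenitor cells p53 is known for restraining proliferation and for removing damaged cells.

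The promoters shown are those of the member with the smallest p in the double mutant (Ccng1), of a second member that rose (Aen) and of the feedback gene that did not pass the test (Mdm2). Each is the 250 bases before a RefSeq transcription start in the build GRCm38.p6, read 5' to 3' on the gene's strand, with the p53 decamer, a motif of 10 letters that reads alike on both strands and of which p53 binds a pair, in capitals. They lie at chr11:40755287-40755536 on the minus strand, chr7:78895808-78896057 on the plus strand and chr10:117710759-117711008 on the minus strand.
Ccng1: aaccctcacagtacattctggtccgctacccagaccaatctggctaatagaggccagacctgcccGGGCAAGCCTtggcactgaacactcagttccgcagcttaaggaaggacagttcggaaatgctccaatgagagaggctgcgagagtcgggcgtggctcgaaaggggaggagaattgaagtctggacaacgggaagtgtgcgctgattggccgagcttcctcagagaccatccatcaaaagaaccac
Aen: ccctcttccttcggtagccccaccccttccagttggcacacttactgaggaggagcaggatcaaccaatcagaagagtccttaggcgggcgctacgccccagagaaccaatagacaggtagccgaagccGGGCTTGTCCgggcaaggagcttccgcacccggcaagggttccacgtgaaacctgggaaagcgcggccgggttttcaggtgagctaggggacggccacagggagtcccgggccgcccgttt
Mdm2: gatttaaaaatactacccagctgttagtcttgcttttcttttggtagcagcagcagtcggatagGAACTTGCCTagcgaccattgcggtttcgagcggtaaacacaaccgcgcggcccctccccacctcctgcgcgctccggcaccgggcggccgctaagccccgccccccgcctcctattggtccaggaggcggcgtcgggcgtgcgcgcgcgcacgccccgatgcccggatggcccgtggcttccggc
The decamer starts 185 bases before the transcription start in Ccng1, 121 before it in Aen and 186 before it in Mdm2. The 250-base windows of 10 of the 29 members with an entry in the table hold a decamer (34.5%), against 8.2% of all 27025 genes in it. The others were Ckap2, Ei24, Ppm1d, Rps27l, Sesn1, and the neighbours Trp53 and Wrap53, which face away from each other and share 1 match. Gtse1, Phlda3 and Triap1 had an entry and no match, which says only that these letters are not in that window. A match is a description of the sequence and not a bound site.

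In the double mutant against WT, 5 of the 31 tested members passed the threshold, all of them higher, against 4.21% of all tested genes in either direction and 1.8% higher (edgeR quasi-likelihood test, adjusted p below 0.05). They were Ccng1, Aen, Gtse1, Phlda3 and Triap1, with fold changes between 1.87 and 2.77. A further 5 members were higher and 2 lower at an unadjusted p under 0.05 only, so that 12 of 31 reached that level, against 22.7% of all tested genes. The median log2 fold change was 0.54 over the 31 tested members, of which 25 lay above 0, and -0.04 over all tested genes, of which 46.6% lay above 0. WT and double mutant plates never shared a flow cell, and with flow cell in place of session as a term no member and 0% of all tested genes passed; with read counts in place of UMIs no member passed either. The 5 calls did not hold in every subset of plates: 1 was left, Ccng1, without both doubtful double mutant plates (replicates 3 and 4), where 0.578% of all tested genes passed, and none without replicate 4 alone (0.0987% of all tested genes), while 12 members passed without replicate 3 alone (17.5% of all tested genes). None passed either when double mutant replicate 2 or WT replicate 1 or 2 was left out, and Ccng1 alone without double mutant replicate 1 or WT replicate 3. In session 1, the sort date that holds WT replicate 1 and double mutant replicates 1 and 2, none passed (0.00795% of all tested genes), and in session 3, which holds WT replicates 2 and 3 and the library labelled double mutant replicate 4, 8 passed (11.7% of all tested genes).

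**Figure D1:**
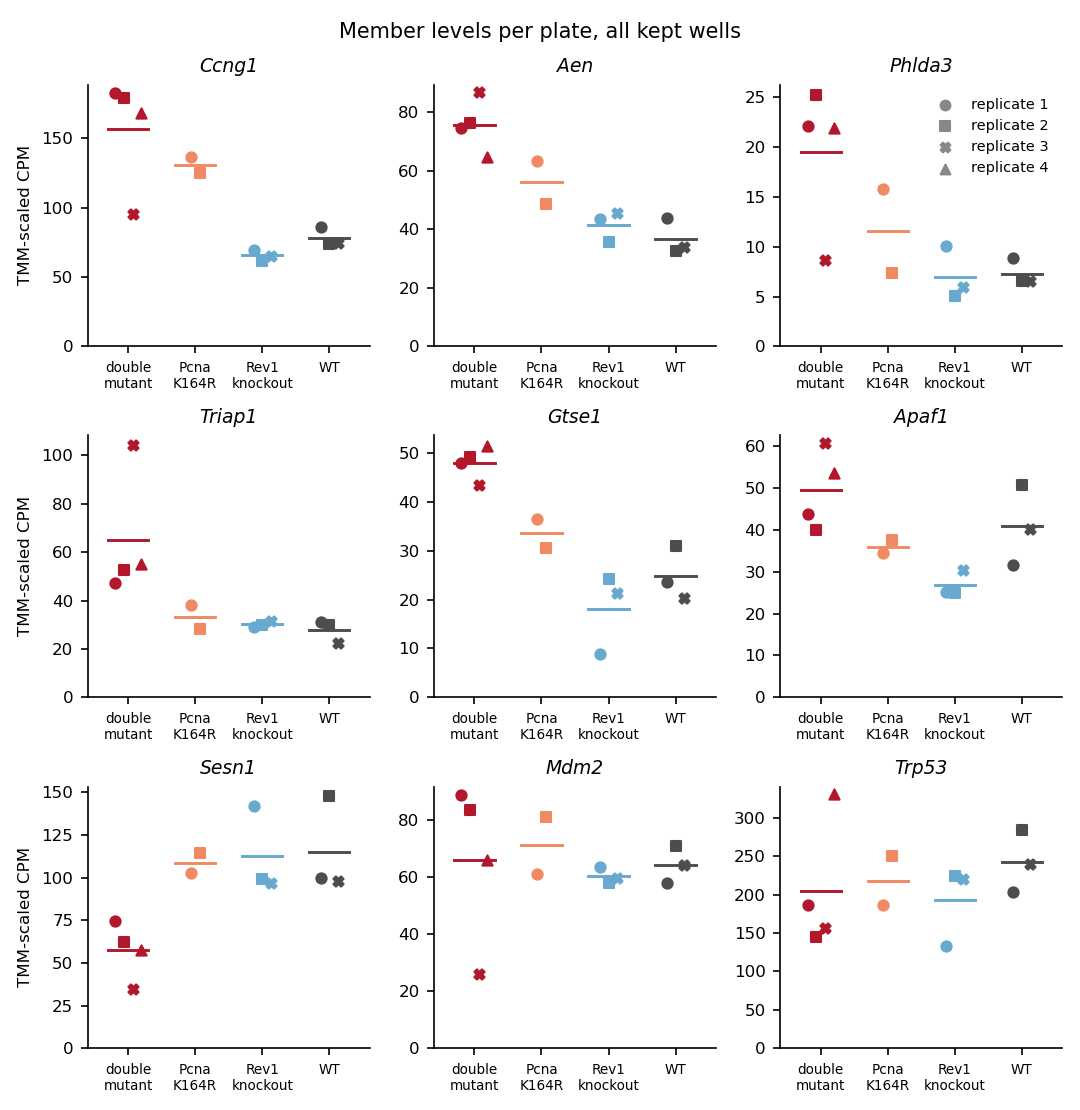
TMM-scaled CPM (vertical axes, from 0) of 9 members in each plate, by genotype; symbols mark replicates and bars are group means. Ccng1, Aen, Triap1 and Gtse1 are higher on this scale in every double mutant plate than in every WT plate (for Ccng1 and Gtse1 not without the scaling, in replicate 3), Phlda3 in every one but replicate 3, and Mdm2 and Trp53 overlap between the groups.

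Among genes of arrest and growth, Ccng1, which encodes cyclin G1, a partner of a phosphatase that acts on Mdm2, was the member with the smallest p. Double mutant replicates 1 to 4 held 183, 179, 95.5 and 168 CPM, Pcna K164R plates 136 and 125 CPM, Rev1 knockout plates 69.7, 61.4 and 65.4 CPM, and WT plates 85.9, 74.0 and 74.4 CPM. All double mutant plates lay above all WT plates, the thin replicate 3 nearest to them on 11 UMIs, but without TMM scaling replicate 3 had 51.7 CPM, below the WT plates at 89.8, 82.4 and 82.3 CPM. Both Pcna K164R plates stood above WT and below double mutant replicates 1, 2 and 4, and Rev1 knockout plates lay below WT. The log2 fold change was 1.04 ± 0.19 (SE) against WT (edgeR adjusted p = 0.0165) and 1.16 ± 0.21 against Rev1 knockout (adjusted p = 0.0246). Against WT it was 1.08 ± 0.21 within session 1 (adjusted p = 0.119) and 1.20 ± 0.17 within session 3 (adjusted p = 0.0108), and 1.08 ± 0.18 without both doubtful plates (adjusted p = 0.0384). Without the library labelled double mutant replicate 4 alone it was 0.88 ± 0.24 (adjusted p = 0.204).

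Gtse1, a G2 and S phase protein that binds microtubules and can restrain p53, rose by about as much. It stood at 48.0, 49.2, 43.4 and 51.5 CPM in double mutant plates, 36.5 and 30.6 CPM in Pcna K164R plates, 8.96, 24.2 and 21.3 CPM in Rev1 knockout plates and 23.6, 30.9 and 20.3 CPM in WT plates. No double mutant plate overlapped any plate of the other genotypes on this scale. Without TMM scaling replicate 3, on 5 UMIs, had 23.5 CPM, inside the WT range of 22.5 to 34.4 CPM. Against WT this was 1.09 ± 0.23 on the log2 scale (edgeR adjusted p = 0.0253), and against Rev1 knockout 1.35 ± 0.27 (adjusted p = 0.0354). Without both doubtful plates the value against WT was 1.05 ± 0.28 (adjusted p = 0.0973).

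Psrc1, a spindle protein, had 48.4, 56.7, 43.4 and 40.6 CPM in double mutant plates, against 27.4, 22.2 and 30.1 CPM in WT plates. Its groups did not overlap on this scale, but replicate 3, on 5 UMIs, had 23.5 CPM without TMM scaling, below the lowest WT plate at 24.7 CPM. The difference of 0.81 ± 0.21 on the log2 scale narrowly missed the threshold (edgeR adjusted p = 0.0517). Gtse1, Psrc1 and the spindle gene Ckap2 are also genes of G2 and mitosis, and 18 other genes of those phases were summed beside them. That sum was 3994, 4183, 2552 and 3358 CPM in double mutant plates, 3718 and 3063 CPM in Pcna K164R plates, 1379, 3057 and 2881 CPM in Rev1 knockout plates, and 2549, 2535 and 2449 CPM in WT plates. All 18 had a log2 fold change above 0 in the double mutant, with a median of 0.59, and 1 was called higher, against 1.8% of all tested genes. The part of this in the values of Gtse1 and Psrc1 was not tested.

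Zmat3, an RNA-binding splicing regulator, had 32.4, 26.5 and 15.8 CPM in double mutant replicates 1, 2 and 4 and no UMI in replicate 3, against 13.6, 6.87 and 8.71 CPM in WT plates. Its log2 fold change was 0.95 ± 0.36 (edgeR adjusted p = 0.139). The antiproliferative gene Btg2, Cd82 and Ckap2 had log2 fold changes of 0.02, 0.09 and 0.17. All 7 tested members of the arrest group lay above 0, with 2 called higher, against 1.8% of all tested genes, and a median of 0.81. The polo kinase gene Plk2, which was too sparse to test, had 22, 29, 0 and 4 UMIs in double mutant plates, 12 and 8 in Pcna K164R plates, 4, 4 and 0 in Rev1 knockout plates and 3, 2 and 3 in WT plates, not corrected for the unequal depth.

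Among the genes of death and survival, 3 of 10 tested members rose in the double mutant, against 1.8% of all tested genes, and the group median was 0.93 on the log2 scale. Aen, a nuclease of apoptotic cells, stood at 74.5, 76.4, 86.8 and 64.9 CPM in double mutant plates, 63.5 and 48.7 CPM in Pcna K164R plates, 43.5, 35.7 and 45.6 CPM in Rev1 knockout plates and 43.9, 32.5 and 34.1 CPM in WT plates. Every double mutant plate exceeded every plate of the other 3 genotypes on this scale. Without TMM scaling replicate 3, on 10 UMIs, had 46.96 CPM, still above the WT plates but below both Pcna K164R plates at 68.4 and 51.0 CPM and Rev1 knockout replicate 3 at 49.7 CPM. The log2 fold change against WT was 0.90 ± 0.19 (edgeR adjusted p = 0.0237), and 0.79 ± 0.24 without both doubtful plates (adjusted p = 0.129).

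Phlda3, an inhibitor of Akt signalling, showed the largest fold change of the 5 called members. It had 22.1, 25.3, 8.68 and 21.9 CPM in double mutant plates, 15.8 and 7.31 CPM in Pcna K164R plates, 10.03, 5.05 and 5.93 CPM in Rev1 knockout plates and 8.83, 6.56 and 6.53 CPM in WT plates. Replicate 3, with a single Phlda3 UMI, fell inside the WT range and the other double mutant plates lay above all others. Its log2 fold change was 1.47 ± 0.35 (edgeR adjusted p = 0.0396), and 1.43 ± 0.44 without both doubtful plates (adjusted p = 0.131).

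Triap1, a small mitochondrial lipid-transfer partner that limits apoptosis, had 47.4, 52.6, 104 and 55.2 CPM in double mutant plates, 38.0 and 28.1 CPM in Pcna K164R plates, 29.2, 30.1 and 31.5 CPM in Rev1 knockout plates and 31.2, 30.0 and 22.5 CPM in WT plates. Again no double mutant plate overlapped another genotype, and the highest value, in replicate 3, rests on 12 UMIs. On the log2 scale the difference was 0.96 ± 0.24 (edgeR adjusted p = 0.0414), and 0.68 ± 0.26 without both doubtful plates (adjusted p = 0.190).

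The X-linked death receptor gene Eda2r was rarer and differed by more, without passing the test. Double mutant plates had 10.4, 10.3, 0 and 7.71 CPM, Pcna K164R plates 7.69 and 6.74 CPM, Rev1 knockout plates 2.43, 0.631 and 2.22 CPM and WT plates 3.82, 1.25 and 2.18 CPM. Apart from replicate 3, with no UMI, the plates that carry Pcna K164R lay above all the others. On the log2 scale double mutant plates differed by 1.65 ± 0.50 (edgeR adjusted p = 0.0807) and Pcna K164R plates by 1.07 ± 0.59 (adjusted p = 1.00), both from the same WT plates.

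Apaf1, the scaffold of the apoptosome, passed the test only where the double mutant was set against Rev1 knockout. It had 43.9, 40.0, 60.8 and 53.5 CPM in double mutant plates, 34.5 and 37.5 CPM in Pcna K164R plates, 25.1, 24.8 and 30.4 CPM in Rev1 knockout plates, and 31.6, 50.6 and 40.3 CPM in WT plates. The Rev1 knockout plates were the low ones, below every other plate, and double mutant and WT overlapped. The log2 fold change was 1.07 ± 0.22 against Rev1 knockout (edgeR adjusted p = 0.0357), 0.35 ± 0.18 between double mutant and WT (adjusted p = 0.291) and -0.72 ± 0.20 in Rev1 knockout against WT (unadjusted p = 0.00397, adjusted p = 0.454).

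Ei24, an endoplasmic reticulum protein, had 54.8, 55.9, 69.4 and 63.7 CPM in double mutant plates, against 41.5, 35.3 and 46.5 CPM in WT plates, which did not overlap on this scale, though replicate 3 stood at 37.6 CPM without TMM scaling, below the lowest WT plate at 39.3 CPM. Its log2 fold change of 0.54 ± 0.18 did not pass (edgeR adjusted p = 0.104). Rps27l, the most abundant member, had 513, 396, 156 and 585 CPM in double mutant plates and 269, 358 and 296 CPM in WT plates, and it is a close copy of Rps27, so its counts are uncertain. Tnfrsf10b, a receptor of the death ligand TRAIL, had 15.2, 14.6, 339 and 13.8 CPM in double mutant plates and 9.35, 14.7 and 21.8 CPM in WT plates, so its high value belongs to the thin replicate 3 alone. There it rested on 39 UMIs spread over 27 wells. Trp53inp1 and Perp, which promote autophagic death and act at cell contacts, had log2 fold changes of -0.08 ± 0.30 and 1.62 ± 0.85, the second on 48 UMIs in double mutant plates and 11 in WT plates. Fas was counted 20 times in all.

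**Figure D2:**
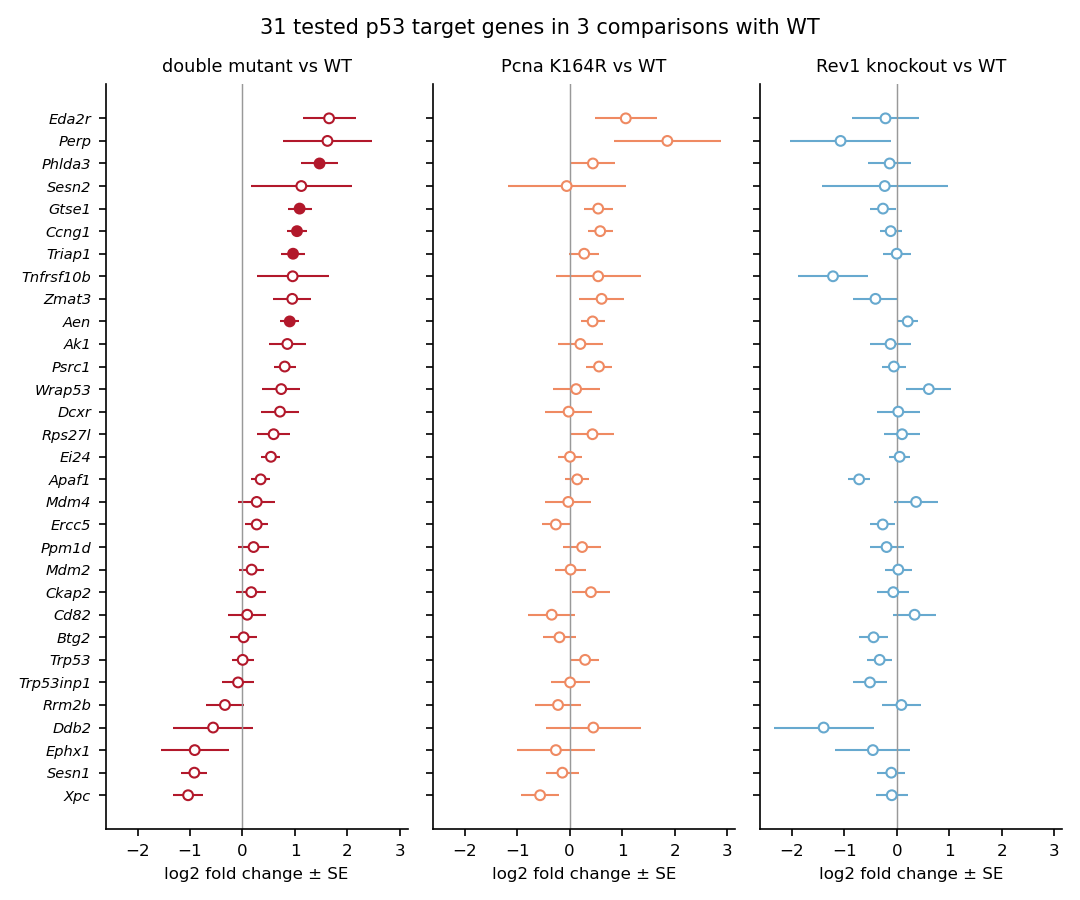
Log2 fold changes with their standard errors (horizontal axis) of the 31 tested members, ordered by the value in the double mutant, for the double mutant, Pcna K164R and Rev1 knockout, each against the same 3 WT plates; filled points passed the threshold. Only the double mutant panel has filled points, 5 of them, all above 0.

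Among the regulators none passed, and the median log2 fold change was 0.21. Trp53, which encodes p53, had 187, 144, 156 and 331 CPM in double mutant plates, 186 and 250 CPM in Pcna K164R plates, 133, 225 and 220 CPM in Rev1 knockout plates and 204, 284 and 240 CPM in WT plates. Double mutant plates held both the highest value and 2 of the 3 lowest, and the log2 fold change was 0.00 ± 0.21 (edgeR adjusted p = 0.997). Wrap53 starts beside Trp53 on the opposite strand, and the strand used in counting is not given in the sources used here, so reads of the pair could be mixed.

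Mdm2 had 88.7, 83.4, 26.0 and 66.1 CPM in double mutant plates, 61.2 and 81.2 CPM in Pcna K164R plates, 63.7, 57.8 and 59.6 CPM in Rev1 knockout plates, and 58.0, 70.9 and 64.3 CPM in WT plates. Replicates 1 and 2 were above all WT plates, replicate 4 among them and the thin replicate 3 below. The log2 fold change was 0.17 ± 0.24 (edgeR adjusted p = 0.729) over all plates, 0.58 ± 0.24 within session 1 (adjusted p = 0.283) and -0.02 ± 0.20 within session 3 (adjusted p = 0.966). Mdm4, its partner in holding p53 inactive, had a log2 fold change of 0.27 ± 0.36. Ppm1d, a phosphatase that ends the damage response, had 28.4, 29.0, 0 and 29.6 CPM in double mutant plates and 21.5, 25.3 and 25.4 CPM in WT plates, so that only the thin plate kept its groups from separating.

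Among 4 repair genes none passed, and the median log2 fold change was -0.45. Xpc, which finds bulky lesions for nucleotide excision repair, had 27.5, 26.4, 0 and 22.3 CPM in double mutant plates, 35.4 and 32.1 CPM in Pcna K164R plates, 51.7, 50.7 and 41.7 CPM in Rev1 knockout plates and 39.8, 55.0 and 61.4 CPM in WT plates. All double mutant plates lay below all the others, with Pcna K164R next, and the 0 of the thin replicate 3 is no UMI at all. Against WT alone, 11% of all tested genes lay below in every double mutant plate. For Xpc the difference of -1.04 ± 0.29 on the log2 scale did not pass (edgeR adjusted p = 0.0615). Ercc5, a nuclease of the same pathway, the ribonucleotide reductase subunit Rrm2b and the lesion sensor Ddb2 had log2 fold changes of 0.27 ± 0.21, -0.33 ± 0.37 and -0.56 ± 0.76.

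Among stress and metabolic members Sesn1 stood apart from the rest. Sesn1, a sestrin that restrains mTORC1, had 74.6, 62.5, 34.7 and 57.6 CPM in double mutant plates, 103 and 114 CPM in Pcna K164R plates, 142, 99.0 and 97.0 CPM in Rev1 knockout plates and 99.6, 148 and 98.02 CPM in WT plates. Every double mutant plate lay below every other plate. Replicate 3 adds little to this, as all 7 listed stress and metabolic members summed to 9 UMIs there. Against WT alone, 11% of all tested genes lay below in every double mutant plate. The log2 fold change of Sesn1 was -0.92 ± 0.25 (edgeR adjusted p = 0.0561). Ak1, an adenylate kinase, had 8.86, 6.86, 17.4 and 7.71 CPM in double mutant plates and 4.48, 4.69 and 3.99 CPM in WT plates, with no overlap. The highest value, in replicate 3, rests on 2 UMIs and was 9.39 CPM without TMM scaling. For Ak1 the difference was 0.85 ± 0.35 on the log2 scale (edgeR adjusted p = 0.173). Dcxr, a carbonyl reductase, Sesn2 and Ephx1, an epoxide hydrolase, had log2 fold changes of 0.71 ± 0.36, 1.12 ± 0.96 and -0.91 ± 0.65. Gdf15, a secreted stress signal too sparse to test, had 8, 23, 0 and 3 UMIs in double mutant plates, 2 and 6 in Pcna K164R plates, 1, 0 and 0 in Rev1 knockout plates and 0, 1 and 2 in WT plates.

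By plates that do not overlap, 7 members lay above WT in every double mutant plate and 2 below, against 4.75% and 11% of all tested genes. Without TMM scaling these counts were 3 (Aen, Ak1 and Triap1) and 2, against 1.14% and 18.4% of all tested genes, and Ccng1, Gtse1, Psrc1 and Ei24 of replicate 3 then lay inside or below the WT range. With scaling but without the thin replicate 3 the counts were 14 and 2, against 18.9% and 18.4% of all tested genes. Without replicate 3, and set against every plate of the 3 other genotypes, 9 members were above and 2 below, against 10% and 7.99%. The 2 below were Sesn1 and Xpc in each case.

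The single mutants gave no call among the members. In Pcna K164R against WT none of 31 passed in edgeR or DESeq2 and 1, Ccng1, had an unadjusted p under 0.05, as did 1.96% of all tested genes; 0% of all tested genes passed in edgeR. The median log2 fold change of the members was 0.20, with 21 above 0, and 8 members lay above all WT plates in both Pcna K164R plates, against 12.2% of all tested genes. In Rev1 knockout against WT none passed in edgeR or DESeq2 and 1, Apaf1, had an unadjusted p under 0.05, as did 9.13% of all tested genes; 0% of all tested genes passed in edgeR. The median was -0.12, with 9 above 0, no member lay above WT in every Rev1 knockout plate (6.1% of all tested genes did), and Apaf1 and Ccng1 lay below (5.49%). These comparisons share the WT plates with that of the double mutant. Both Pcna K164R plates were sorted in session 1, where replicate 1 was the only WT plate. With session as a term, the fold changes of Pcna K164R against WT thus lean largely on that plate. The counts of plates that do not overlap carry no session term and cross sessions.

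Added to Rev1 loss, the clamp change was accompanied by higher Apaf1, Ccng1 and Gtse1, 3 of 31 members, against 1.75% of all tested genes, and the members' median was 0.54. None of the 3 passed when double mutant replicate 2 or 4 or Rev1 knockout replicate 2 or 3 was left out, and Ccng1 alone without double mutant replicate 1 or WT replicate 2. Added to the clamp change, Rev1 loss gave no call in edgeR or DESeq2, 7 members with an unadjusted p under 0.05 (9.61% of all tested genes) and a median of 0.30, where 0.0409% of all tested genes passed in edgeR. For Ccng1 that difference was 0.46 ± 0.21 (edgeR adjusted p = 0.520), with a 95% interval of -0.06 to 0.97. The interaction, the departure of the double mutant from the sum of both single effects on the log2 scale, passed for no member in edgeR or DESeq2 and for 0% of all tested genes in edgeR. It had an unadjusted p under 0.05 for 4 members (5.24% of all tested genes) and a median of 0.42, and for Ccng1 it was 0.57 ± 0.28 (adjusted p = 0.974). So a difference between the double mutant and Pcna K164R was not shown for any single member.

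Other genes of the pathway were read from lists that do not contain the 36 members. These lists too were chosen with earlier results of these data known. Of 17 tested further p53 targets none fell in the double mutant against WT. Their median log2 fold change was 0.48, against -0.04 over all tested genes. Higher were 4 of the 17, against 1.8% of all tested genes. They were Cdkn1a, the p21 cell cycle inhibitor, at 2.33 ± 0.26 (edgeR adjusted p = 0.00218), the long noncoding RNA Pvt1 at 2.41 ± 0.33 (adjusted p = 0.00684), the death effector Bax at 1.23 ± 0.22 (adjusted p = 0.0165) and Zfp365 at 2.75 ± 0.57 (adjusted p = 0.0239). Of 16 tested genes that act upstream of p53, such as damage kinases, none passed and the median was -0.01. Of 18 cell cycle genes that p53 lowers through p21, none fell, against 2.41% of all tested genes. Ccnb1 at 1.09 ± 0.24 (edgeR adjusted p = 0.0293) and Birc5 at 1.00 ± 0.24 (adjusted p = 0.0386) rose, against 1.8% of all tested genes. The median of the list was 0.57. Several of its genes, Ccnb1 among them, are also among the 18 other G2 and mitosis genes summed above, so the 2 lists are not separate observations.

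The make-up of the plates differed between genotypes too. Wells were thinned to 1000 UMIs and assigned to the lineage marker list with the most UMIs, at least 2. Erythroid markers were positive in 15.4, 22.01, 3.66 and 34.6% of wells in double mutant plates, 9.89 and 6.43% in Pcna K164R plates, 0.612, 2.82 and 5.76% in Rev1 knockout plates and 5.77, 1.97 and 4.09% in WT plates. All 12 erythroid markers were detected in double mutant replicates 1, 2 and 4 and in every WT plate, and 9 of them in replicate 3, at a summed 608 to 1687 CPM in double mutant plates and 214 to 622 CPM in WT plates. Stem markers were positive in 8.96, 12.3, 9.76 and 6.54% of wells in double mutant plates, 17.5 and 24.6% in Pcna K164R plates, 31.8, 16.4 and 14.4% in Rev1 knockout plates and 22.05, 26.6 and 26.9% in WT plates. Lymphoid markers were positive in 0 to 3.36% of wells in double mutant plates and 8.92 to 13.1% in WT plates. Neither share overlapped between double mutant and WT. Without the erythroid-positive wells, 2 of the 5 calls were left (0.947% of all tested genes passed there), Ccng1 at 0.97 ± 0.17 (edgeR adjusted p = 0.0282) and Gtse1 at 1.18 ± 0.23 (adjusted p = 0.0386). Aen and Phlda3 kept values of 0.88 ± 0.19 and 1.47 ± 0.36 there with adjusted p of 0.0524 and 0.0780, and Triap1 was at 0.70 ± 0.25 (adjusted p = 0.218).

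The lower Sesn1 and Xpc values of the double mutant, which did not pass the test, stand beside these shares, and both genes were scarce in erythroid-marker-positive wells. Sesn1 had 26.95, 24.6 and 28.99 CPM without TMM scaling in such wells of double mutant replicates 1, 2 and 4 and 15.6 CPM in those of the one WT plate with enough of them. In wells without lineage markers it had 75.7, 75.7, 24.1 and 72.6 CPM in double mutant plates and 109, 171 and 154 CPM in WT plates. Xpc had 7.58, 6.78 and 10.6 CPM in the erythroid-positive wells of double mutant replicates 1, 2 and 4 and 14.4 CPM in those of the WT plate, against 29.5, 35.6, 0 and 26.01 CPM in the wells without lineage markers of double mutant plates and 39.2, 63.04 and 61.4 CPM in those of WT plates. Without the erythroid-positive wells the log2 fold change was -0.72 ± 0.23 for Sesn1 (edgeR adjusted p = 0.170) and -0.78 ± 0.28 for Xpc (adjusted p = 0.209), and in wells without lineage markers -0.85 ± 0.21 and -0.74 ± 0.30 (adjusted p = 0.0891 and 0.303). Sesn1 was not lower in every class. In granulocyte-monocyte-marker-positive wells it had 77.3 and 62.2 CPM in double mutant plates and 91.35, 58.7 and 39.35 CPM in WT plates. In lymphoid-marker-positive wells the double mutant plate had 204.5 CPM and WT plates 134, 196 and 115 CPM. In stem-marker-positive wells double mutant plates had 121 and 119 CPM and WT plates 128, 219 and 134 CPM. Xpc was below every WT plate in each of these classes. The part of the stem and lymphoid shares in these values was not tested.

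Members were then compared within wells of one marker class, as CPM of the summed UMIs of that class without TMM scaling. Levels are given mainly for Ccng1, and some of the other called members did not lie above WT in every class. In wells without lineage markers, Ccng1 had 162, 152, 54.1 and 179 CPM in double mutant plates, 120 and 97.9 in Pcna K164R plates, 75.6, 63.2 and 63.6 in Rev1 knockout plates and 84.6, 83.0 and 71.9 in WT plates. Apart from the thin replicate 3, on 9 UMIs, double mutant plates were again the highest and Pcna K164R plates next, while Rev1 knockout and WT plates overlapped. Its log2 fold change there was 1.02 ± 0.19 (edgeR adjusted p = 0.0281), and it was the only call among 27 tested members, against 0.736% of all tested genes. It was lost with 1 marker UMI in place of 2, and when any single plate other than Pcna K164R replicate 2, Rev1 knockout replicate 1 or double mutant replicate 3 was left out. Phlda3 had 22.2, 22.8, 6.01 and 26.0 CPM in double mutant plates and 7.51, 5.38 and 7.49 in WT plates, 1.76 ± 0.40 higher on the log2 scale, which did not pass (edgeR adjusted p = 0.0662).

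In stem-marker-positive wells, 2 double mutant plates had at least 10 such wells. Ccng1 had 145 and 136 CPM there, 110 and 117 in Pcna K164R plates, 75.8, 71.7 and 96.3 in Rev1 knockout plates and 83.9, 91.8 and 109 in WT plates. The double mutant plates were the highest, and the log2 fold change of 0.78 ± 0.28 did not pass (edgeR adjusted p = 0.268). Aen and Gtse1 also lay above every WT plate there. Triap1 overlapped, at 26.8 and 29.7 CPM in double mutant plates and 23.7, 35.8 and 24.7 in WT plates. So did Phlda3, at 12.8 and 26.6 CPM in double mutant plates and 11.1, 14.0 and 8.82 in WT plates. No member passed in this class in edgeR or DESeq2, against 0.263% of all tested genes in edgeR, and 6 of 27 had an unadjusted p under 0.05, against 11.5% of all tested genes, among them Ccng1, Gtse1 and Eda2r with p of 0.0123, 0.00086 and 0.0317.

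In granulocyte-monocyte-marker-positive wells Ccng1 had 185 and 158 CPM in double mutant plates, 123 and 74.1 in Pcna K164R plates, 54.5, 51.9 and 50.1 in Rev1 knockout plates, and 51.2, 66.0 and 58.2 in WT plates. Double mutant plates stood well clear of the others, 1.68 ± 0.38 higher than WT on the log2 scale (edgeR adjusted p = 0.231). In lymphoid-marker-positive wells the only double mutant plate with enough wells had 150 CPM, Pcna K164R plates 138 and 158, Rev1 knockout plates 88.5, 66.8 and 57.6 and WT plates 81.7, 70.9 and 87.1. There the single Pcna K164R mutants were as high as the double mutant plate.

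Of the 5 classes described here, erythroid-marker-positive wells held the highest Ccng1 levels in both Pcna K164R plates, in double mutant replicates 1 and 2 and in the WT plate. Outside these classes, macrophage-marker-positive wells had 250 CPM in double mutant replicate 1, on 28 UMIs, and 103 in WT replicate 1. B-lineage-marker-positive wells of double mutant replicate 1 had 76.9 CPM, on 23 UMIs, and no WT plate had enough such wells. In erythroid-marker-positive wells, double mutant replicates 1, 2 and 4 had 247, 241 and 179 CPM and Pcna K164R plates 263 and 237. The one Rev1 knockout plate had 76.7 and the one WT plate 155. Double mutant and Pcna K164R overlapped, both above the WT plate, and the double mutant difference on the log2 scale of 0.65 ± 0.26 against it (edgeR adjusted p = 0.427) rests on 1 WT plate. No member passed in this class in edgeR or DESeq2, and 0% of all tested genes passed in edgeR, while 4 of 26 members had an unadjusted p under 0.05, against 9.94% of all tested genes. In this class Gtse1 had 43.4, 42.8 and 49.3 CPM in double mutant replicates 1, 2 and 4 and 49.3 in the WT plate. Aen had 81.3, 84.9 and 61.85 CPM in those replicates and 69.7 in the WT plate. Phlda3 and Triap1 lay above the WT plate in all of those replicates. Whether the double mutant differs more in one class than in another was not tested.

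**Figure D3:**
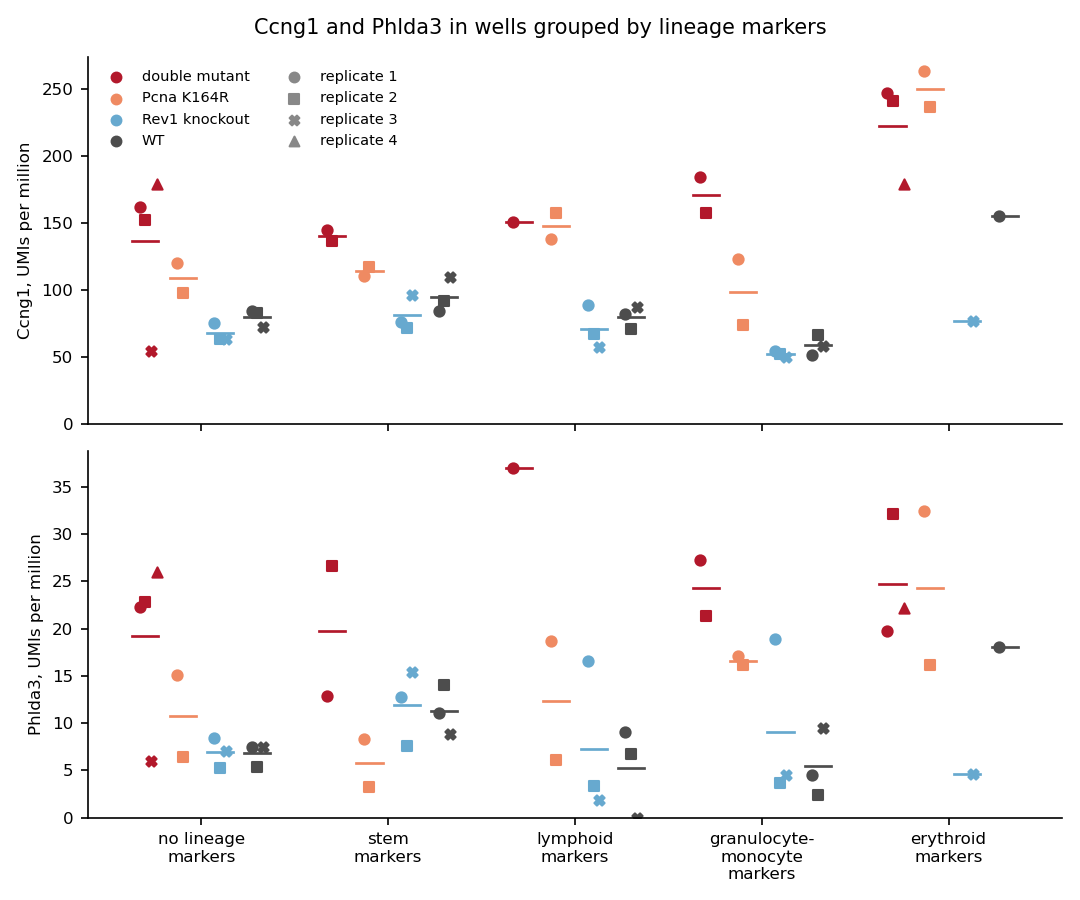
Unscaled CPM of Ccng1 (top) and Phlda3 (bottom) in wells of 5 marker classes (horizontal axis), each point a plate with at least 10 wells of the class, coloured by genotype, with bars for means. Ccng1 in double mutant replicates 1 and 2 exceeds every WT plate in every plotted class they appear in, and the erythroid class has a single WT plate, at 155.

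Because Cdkn1a is the best known p53 target, wells were also split by it at equal depth. Wells with at least 5000 UMIs were thinned to that number and divided into those with and without a Cdkn1a UMI. A Cdkn1a UMI was present in 75 of 328 wells of double mutant replicate 1, 62 of 238 of replicate 2 and 14 of 81 of replicate 4, in 39 of 315 and 31 of 259 wells of the Pcna K164R plates, in 13 of 296, 18 of 193 and 10 of 206 of the Rev1 knockout plates, and in 26 of 361, 8 of 218 and 6 of 140 of the WT plates. Double mutant replicate 3 had 9 wells of that depth and is left out. The split describes wells within a plate, wells are not replicates, and no test was made. Wells called without Cdkn1a below had no Cdkn1a UMI at this depth, and cells that express it can be among them.

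In the double mutant, the level of Ccng1 was higher in wells with a Cdkn1a UMI than in wells without one. Wells with a Cdkn1a UMI had 320, 306 and 486 CPM of Ccng1 in double mutant replicates 1, 2 and 4, and wells without one 112, 139 and 143. In Pcna K164R plates the values were 241 and 193.5 with, and 133 and 114 without. In Rev1 knockout plates they were 108, 100 and 100 with, and 69.3, 58.3 and 82.7 without. WT wells had 61.5, 75.0 and 267 with and 90.7, 77.1 and 85.1 without, the 267 from 6 wells. Wells without a Cdkn1a UMI in double mutant plates were thus still above those of every WT plate, by a smaller margin. Those of both Pcna K164R plates were above them too. Such wells are not shown to lack Cdkn1a, so this does not show higher Ccng1 in cells without it.

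Mdm2, whose plate totals did not pass the test, showed the same split in the double mutant. It had 147, 129 and 171 CPM in wells with Cdkn1a and 70.4, 56.8 and 44.8 in wells without, in double mutant replicates 1, 2 and 4. Pcna K164R plates had 92.3 and 90.3 with and 65.9 and 93.0 without, Rev1 knockout plates 15.4, 88.9 and 140 with and 73.5, 80.0 and 63.3 without, and WT plates 38.5, 50.0 and 133 with and 66.3, 73.3 and 74.6 without. Wells with Cdkn1a in double mutant replicates 1 and 2 held 55 and 40 Mdm2 UMIs, and those of the 3 WT plates 5, 2 and 4. Trp53inp1, which also did not pass between genotypes, was 4.56, 4.26 and 8.61 times as high in wells with Cdkn1a in double mutant plates and 3.69 and 2.94 times in Pcna K164R plates. The 8.61 is that of replicate 4, which had the fewest wells with Cdkn1a of these double mutant plates, and rests on few UMIs. Its ratios in Rev1 knockout and WT plates are not given here. Trp53 itself was not higher in wells with Cdkn1a, at 1.03, 1.00 and 0.92 times in double mutant plates.

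Over the listed members together, wells with Cdkn1a had 2365, 2052 and 2657 CPM in double mutant plates, 1923 and 1845 in Pcna K164R plates, 1369, 1344 and 1520 in Rev1 knockout plates and 1323, 1700 and 2067 in WT plates. Wells without Cdkn1a had 1508, 1414 and 1830 in double mutant plates, 1469 and 1682 in Pcna K164R plates, 1298, 1310 and 1367 in Rev1 knockout plates and 1302, 1624 and 1472 in WT plates. The ratio was 1.57, 1.45 and 1.45 in double mutant plates, against 1.02, 1.05 and 1.404 in WT plates. Members with at least 20 UMIs were higher in wells with Cdkn1a for 21 of 23, 17 of 21 and 7 of 10 members in double mutant plates, for 19 of 24 and 8 of 17 in Pcna K164R plates, for 12 of 21, 9 of 17 and 7 of 14 in Rev1 knockout plates and for 11 of 22, 10 of 19 and 9 of 15 in WT plates. Pcna K164R replicate 1 thus had a share within the double mutant range. The share of all genes that were higher in wells with Cdkn1a was not computed. Without it these counts are not by themselves a result about the members. The 18 other G2 and mitosis genes were not higher in wells with Cdkn1a, at 0.84, 0.87 and 0.91 times in double mutant plates. Erythroid markers were at 0.95, 1.22 and 0.44 times.

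**Figure D4:**
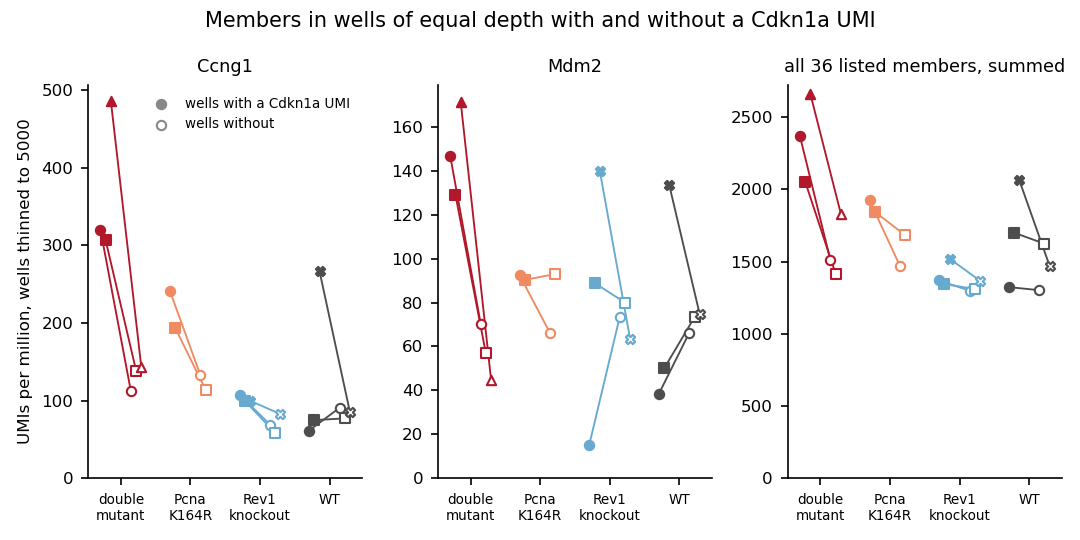
Unscaled CPM (vertical axes, from 0) of Ccng1, Mdm2 and all 36 listed members summed, in wells thinned to 5000 UMIs with (filled) and without (open) a Cdkn1a UMI, a line for each plate, by genotype. In all 3 double mutant plates shown the filled points lie above the open ones for each, while the WT plates differ in direction for Ccng1 and Mdm2.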

How the data were processed

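Single LSK cells of 12 plates were counted in 4 genotypes. Per the labels' protocols, SORT-seq libraries were sequenced on a NextSeq500; the submitters' processing notes name BWA 0.7.15 and, as build, GRCm38 (mm10). No source used here gives the counting tool, annotation or strand setting. The authors deposited 3 tables per plate: whole-number UMI counts, whole-number read counts, and transcript counts, which are expected counts the authors made from UMI counts by correcting for repeated random barcodes and were rounded here. All 384 well names are shared by all plates, as plate positions, and the random barcodes limit only abundant genes.

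Wells with at least 1000 UMIs outside spike-ins were kept (3088 of 4608) and summed per plate, with 212938 to 11617420 UMIs. edgeR 4.0.16 (R 4.3.3) was run on the UMI counts with TMM scaling, its default filter, and genotype and sort session as terms, over 12 plates with 6 residual degrees of freedom. p-values were adjusted by Benjamini-Hochberg over all 12221 genes tested, with a threshold of 0.05; SE is the fold change over the root of the F statistic. CPM are TMM-scaled unless stated. The normalisation factor was 0.549 for double mutant replicate 3 and 0.973 to 1.11 for the others. Sessions are the labels' sort dates, and WT and double mutant plates never shared a flow cell. Replicate numbers follow accession order. The script was tested on simulated data. No doublet caller was run, as wells were filled by a single-cell sort. Alternatives included DESeq2 1.42.0, other scaling, filters and count tables, and leaving out plates.

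Members and lists were chosen with earlier results of these data known. Members past the threshold in any comparison, up to 12 by smallest p, and Trp53, Mdm2 and Ccng1 are given in full, the others by fold change. Promoter sequences are from RefSeq.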

Additional observations from a re-analysis of the deposited data

Results flagged for a closer look

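Among the 31 tested members, 7 had a double mutant plate far from the other 3, in 6 cases the thin replicate 3. The rule used flags about 1 group in 20 by chance only where all plates have the same spread. That rate does not apply here, because in the thin replicate 3 a single UMI is 8.68 CPM. In replicate 3, Ccng1 had 95.5 CPM on 11 UMIs, against 168 to 183 in the other double mutant plates. Ppm1d had 0 CPM there, against 28.4 to 29.6, and Trp53inp1 8.68 CPM on 1 UMI, against 22.5 to 25.1. Replicate 3 was high for Triap1 at 104 CPM on 12 UMIs (47.4 to 55.2 in the others), for Sesn2 at 17.4 CPM on 2 UMIs (0.709 to 3.02 in the others) and for Tnfrsf10b at 339 CPM on 39 UMIs (13.8 to 15.2 in the others). Rrm2b was low in the library labelled double mutant replicate 4, at 4.87 CPM on 12 UMIs, against 8.68 to 9.13 in the others.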

How the results depend on the processing

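No paired analysis was possible because the labels give no replicate numbers that groups share. In the double mutant against WT the count of members called was 5, and it was 7 with RLE scaling, 6 with transcript counts, 6 without the session term, 6 without mitochondrially encoded genes, and 5 over wells with at least 2000 UMIs. It was 9 with DESeq2, 9 with no filter on low counts, 11 with WT and double mutant plates alone, 8 in session 3 alone, 2 without erythroid-marker-positive wells, and 1 without both double mutant plates in doubt, an alternative chosen after seeing the data. It was 0 with read counts, 0 with flow cell in place of session and 0 in session 1 alone. It was also 0 with wells thinned to 1000 UMIs, which left 16 members tested. The causes were not tested. The share of all tested genes that passed also moved between settings, as given above for some of them. Without that share beside it, a count here or below is not by itself a result about the members.

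The 7 members above WT in every double mutant plate became 3 with CPM without TMM scaling, an alternative also chosen after seeing the data, and the 2 below stayed 2. Leaving out 1 plate gave 0 to 13 members: none without double mutant replicate 2 or 4 or without WT replicate 1 or 2, 1 (Ccng1) without double mutant replicate 1 or WT replicate 3, 3 without Rev1 knockout replicate 2 or 3, 12 without double mutant replicate 3 and 13 without Rev1 knockout replicate 1. Ccng1 passed in 8 of 12 leave-outs, at log2 fold changes of 0.88 to 1.16, and in 11 of 15 other settings, at 0.78 to 1.20. Aen, Gtse1, Phlda3 and Triap1 stayed above 0 in all settings run and passed in 6, 6, 4 and 4 of 12 leave-outs. Among other settings they passed in 9 of 15, 8 of 15, 9 of 14 and 9 of 15. Sesn1 and Xpc stayed below 0 in all settings run, and each passed in 2 of 12 leave-outs and 5 of 15 other settings. The counts of members called in such settings can thus include lower members.

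Against Rev1 knockout the count was 3, with 7 in DESeq2, 7 without the session term and 0 to 5 over leave-outs (0 when double mutant 2 or 4, or Rev1 knockout 2 or 3, was left out, 1 without double mutant replicate 1 or WT replicate 2). In wells without lineage markers the count of 1 became 5 in DESeq2, 0 with 1 marker UMI in place of 2, and 0 to 5 over leave-outs: it was 5 without Rev1 knockout replicate 1 and also without double mutant replicate 3, and Ccng1 was lost without any other plate but Pcna K164R replicate 2. In stem-marker-positive wells the count of 0 became 1 with 1 marker UMI in place of 2 and 0 to 2 over leave-outs, and in erythroid-marker-positive wells 0 to 1. The fits without WT replicate 1 in stem-positive wells and without double mutant replicate 4 in erythroid-positive wells could not be made. Counts of 0 in the other comparisons stayed at 0 in every setting run.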
